A study of Mus musculus with 8 samples.

Results

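Transcripts of 8 chemokine genes, Cxcl1, Cxcl2, Cxcl5, Cxcl10, Cxcl12, Cxcl15, Cxcl16 and Cx3cl1, were followed in Hepa1-6 cells, a mouse hepatoma line labelled as of C57BL/6 strain. They are 8 of the 54446 genes in the count table, and they were chosen by name to set Cxcl15, whose counts were low in cells given the cytokine TNF-α, beside other genes of its family. The choice therefore rests on the values with and without TNF-α, which are given below as a description of these genes without a test. Bulk mRNA sequencing covered 4 groups of 2 libraries: cells given TNF-α at 50 ng/ml for 24 h, cells given trimethylamine N-oxide (TMAO, an oxidised amine formed in the liver from a product of gut bacteria) at 50 µM and TNF-α at 50 ng/ml for 24 h, cells given TMAO alone at 50 µM for 24 h, and control cells whose treatment is labelled None. All 4 groups were kept in the same serum-containing medium, and all come from 1 cell line, so the number of libraries does not stand for a number of animals. Within a group the 2 libraries are numbered 14 and 16. Nothing in the labels says that they came from separate cultures, so the spread behind every p-value may be technical.

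Chemokines are small secreted proteins that draw leukocytes along a gradient by binding G protein-coupled receptors. Cxcl1, Cxcl2, Cxcl5 and Cxcl15 belong to the CXC chemokines that attract neutrophils, and Cxcl10 attracts activated T cells through Cxcr3 and is known as an interferon-inducible gene. Cxcl12 retains and guides leukocytes through Cxcr4, Cxcl16 binds Cxcr6, and Cx3cl1 binds Cx3cr1. Cxcl16 and Cx3cl1 are made as membrane proteins that metalloproteinases shed from the cell surface. Cxcl15, also called lungkine, is known mainly from the epithelium of the mouse lung. In liver inflammation, hepatocytes themselves make several neutrophil-attracting CXC chemokines, and TNF-α is a known inducer of such genes through the transcription factor NF-κB.

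The promoter windows of the gene with low counts under TNF-α and of 3 of those with high counts are shown because the motifs in them differ. Each runs 5′ to 3′ from 250 bases before to 50 bases after the gene's start on its own strand, from RefSeq on build GRCm38.p6. Cxcl15 is at chr5:90794284-90794583, Cxcl1 at chr5:90890995-90891294 and Cxcl2 at chr5:90903649-90903948, all on the plus strand, and Cxcl10 is at chr5:92348840-92349139 on the minus strand. Capitals mark matches to the consensus motif of NF-κB and to the TATA box TATAAA, each searched on both strands.
Cxcl15: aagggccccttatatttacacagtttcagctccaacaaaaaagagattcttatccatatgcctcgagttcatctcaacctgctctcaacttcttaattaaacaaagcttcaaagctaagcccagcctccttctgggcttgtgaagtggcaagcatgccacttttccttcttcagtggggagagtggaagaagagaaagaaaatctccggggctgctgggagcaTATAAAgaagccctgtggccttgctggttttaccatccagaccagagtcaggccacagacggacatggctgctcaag
Cxcl1: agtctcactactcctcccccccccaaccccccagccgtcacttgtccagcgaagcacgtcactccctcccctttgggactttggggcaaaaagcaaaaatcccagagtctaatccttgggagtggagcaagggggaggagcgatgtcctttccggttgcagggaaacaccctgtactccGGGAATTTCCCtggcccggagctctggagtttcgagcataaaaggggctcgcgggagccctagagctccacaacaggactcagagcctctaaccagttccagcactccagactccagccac
Cxcl2: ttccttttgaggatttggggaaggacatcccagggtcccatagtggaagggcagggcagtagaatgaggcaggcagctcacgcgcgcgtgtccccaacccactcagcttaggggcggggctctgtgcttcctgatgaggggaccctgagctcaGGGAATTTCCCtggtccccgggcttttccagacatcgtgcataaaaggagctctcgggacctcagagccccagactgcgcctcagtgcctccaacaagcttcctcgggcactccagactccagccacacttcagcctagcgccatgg
Cxcl10: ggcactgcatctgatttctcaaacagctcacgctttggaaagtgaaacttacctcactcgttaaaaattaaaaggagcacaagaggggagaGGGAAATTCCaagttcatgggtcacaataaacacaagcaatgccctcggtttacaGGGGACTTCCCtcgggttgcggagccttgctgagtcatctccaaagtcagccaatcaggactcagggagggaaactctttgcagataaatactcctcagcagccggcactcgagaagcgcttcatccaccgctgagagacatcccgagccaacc

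The windows of Cxcl1 and Cxcl2 each held 1 match to the NF-κB consensus, of 11 bases, with the same letters GGGAATTTCCC, beginning 71 bases before the start of Cxcl1 and 97 bases before that of Cxcl2. The Cxcl10 window held 2 such matches, beginning 159 and 104 bases before the start. The Cxcl15 window held no match to it and had a TATA box beginning 27 bases before the start. Of 32851 promoter windows of the same length, 8.46% held the NF-κB consensus and 13.6% the TATA box. Cxcl10 also held the interferon-stimulated response element (ISRE) 213 bases before its start, found in 3.44% of windows, and the AP-1 motif TGANTCA 74 bases before its start, found in 7.81%. The C/EBP motif TTGCNNAA, found in 10.8% of windows, lay in none of the 6 windows of the set. All motifs were searched on both strands, so the shares of windows count a match on either strand. Overlapping matches to 1 motif were counted as 1. No NF-κB match lay in the windows of Cxcl12 and Cx3cl1. RefSeq windows were matched for 6 of the 8 genes, the exceptions being Cxcl5 and Cxcl16. A match is a run of letters, not a shown binding site, and the lack of one covers only this window.

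The libraries held 24736746 to 30488605 counts. Of the 54446 genes, 15613 passed the filter on low counts, and 24472 had 0 counts everywhere. The library of TNF-α cells numbered 16 stood apart: its median correlation with the other libraries was 0.967, against 0.981 to 0.983 for the other 7, and it had the lowest total. Its log2 values differed from those of TNF-α library 14 with an SD of 0.813 over genes, against 0.352 to 0.413 within the other 3 groups. Fold changes of the chemokine genes for TNF-α against control are given with and without it, and so are those of some other genes. Its absence changed the calls of further listed genes, Rela, Nfkb1, Rel and Ikbkb among them, and not all such changes are given. Levels are given as CPM (counts per 1000000 of a library's total over the kept genes times its TMM factor) from the counts, and as the TPM (a unit that takes account of transcript length) that the authors deposited. Of the hepatocyte markers that the label implies, Alb was at 347 to 442 CPM in the 4 libraries with TNF-α and 1092 to 1228 CPM in the 4 without, while 2 of the 6 listed markers, Ttr and Apoa1, stayed under 1 CPM everywhere.

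Of the 8 chemokine genes, 7 passed the filter. Cxcl12 had 0 counts and was listed at 0 TPM in all 8 libraries, which for the counts allows a level of up to 0.0993 to 0.124 CPM per library. By TPM the order of the detected genes in TNF-α cells ran from Cxcl10, at 391 and 421 TPM, through Cxcl16, at 160 and 165, Cxcl1, at 68.5 and 61.7, Cxcl5, at 32.7 and 34.7, Cxcl2, at 25.3 and 24.8, and Cx3cl1, at 12.7 and 33.8, to Cxcl15, at 2.80 and 2.50. The ranges of Cxcl5, Cxcl2 and Cx3cl1 overlapped through the wide spread of Cx3cl1. In control cells the order was Cxcl10, at 211 and 215 TPM, Cxcl16, at 48.5 and 50.8, Cxcl1, at 45.6 and 44.9, Cxcl15, at 28.7 and 30.5, Cxcl5, at 29.9 and 24.8, Cxcl2, at 13.4 and 13.8, and Cx3cl1, at 9.34 and 13.5. There the ranges of Cxcl15 and Cxcl5 overlapped, and those of Cxcl2 and Cx3cl1 did so as well. Cxcl15 thus stood last of the detected genes with TNF-α and in the middle of them without it.

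Among the neutrophil-attracting genes, Cxcl15 had 94 and 84 counts in TNF-α cells and 89 and 97 in cells given both agents, against 815 and 941 in TMAO cells and 959 and 947 in control cells. Scaled, that was 3.11 and 3.47 CPM in TNF-α cells and 3.20 and 3.44 CPM in cells given both, against 28.6 and 31.2 CPM in TMAO cells and 32.4 and 32.6 CPM in control cells. The 4 libraries with TNF-α lay far below the 4 without it and still held 84 to 97 counts each, so the transcript was low but detected. The fitted log2 fold change was -3.31 ± 0.13 (SE) for TNF-α against control, a level 9.89-fold lower. It was -3.29 ± 0.13 for both agents against control and -3.17 ± 0.13 for both against TMAO. Of the 15613 genes, 19 had a more negative log2 fold change than Cxcl15 for TNF-α against control, 21 for both against control and 19 for both against TMAO. Without TNF-α library 16 the value for TNF-α against control was -3.39, and without library 14 it was -3.24. The deposited TPM gave 2.80 and 2.50 in TNF-α cells and 2.94 and 3.25 in cells given both, against 26.8 and 28.0 in TMAO cells and 28.7 and 30.5 in control cells.

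Cxcl1 differed from Cxcl15 in direction. It had 33.0 and 39.1 CPM in TNF-α cells and 30.2 and 29.5 CPM in cells given both, against 20.5 and 20.6 CPM in TMAO cells and 23.7 and 21.2 CPM in control cells. All 4 libraries with TNF-α lay above the 4 without, with a log2 fold change of 0.68 ± 0.12 for TNF-α against control, a 1.61-fold higher level. Cxcl2, a close relative of Cxcl1, had 15.7 and 19.9 CPM in TNF-α cells and 14.8 and 11.8 CPM in cells given both, against 8.20 and 8.02 CPM in TMAO cells and 8.62 and 8.65 CPM in control cells. Its groups with and without TNF-α did not overlap either, and its log2 fold change for TNF-α against control was 1.04 ± 0.17. Cxcl5, another neutrophil attractant, had 26.9 and 35.4 CPM in TNF-α cells and 26.6 and 25.3 CPM in cells given both, against 19.4 and 19.0 CPM in TMAO cells and 25.6 and 20.1 CPM in control cells. Here the groups overlapped, since control library 14 lay above 1 of the libraries given both agents, and the log2 fold change for TNF-α against control was 0.44 ± 0.17. Without TNF-α library 16 the log2 fold changes were 0.55 for Cxcl1, 0.86 for Cxcl2 and 0.23 for Cxcl5, with the value of Cxcl5 the most changed of these 3. In TPM, Cxcl15 stood at 0.0405 to 0.0409 of Cxcl1 in TNF-α cells and 0.0490 to 0.0545 in cells given both, against 0.644 to 0.650 in TMAO cells and 0.630 to 0.681 in control cells.

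Cxcl10, the ligand of Cxcr3 in this set, had 187 and 251 CPM in TNF-α cells and 196 and 194 CPM in cells given both, against 102 and 104 CPM in TMAO cells and 113 and 106 CPM in control cells. The libraries with TNF-α all lay above those without, and the log2 fold change was 0.997 ± 0.15 for TNF-α against control, or 0.77 without TNF-α library 16. In the annotation, 5.91% of the exon bases of Cxcl10 overlap exons of Art3 on the opposite strand. Whether the counting used strand is not stated, so reads from the shared stretch cannot be told apart, but Art3 itself stayed at or under 0.132 CPM.

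The membrane-bound chemokines did not share a pattern. Cxcl16 had 162 and 215 CPM in TNF-α cells and 157 and 152 CPM in cells given both, against 53.1 and 50.7 CPM in TMAO cells and 57.0 and 52.6 CPM in control cells. It had the highest log2 fold change of the 7 for TNF-α against control, 1.78 ± 0.15, and 225 of the 15613 genes had a higher one. It was 1.56 without TNF-α library 16. Its exons overlap those of Zmynd15 on the opposite strand over 18.3% of their bases, and Zmynd15 stood at 20.9 to 22.0 CPM with TNF-α and 3.75 to 6.31 CPM without it. Its part in the Cxcl16 counts was not tested. Cx3cl1 had 72.4 and 69.2 CPM in TNF-α cells and 64.2 and 70.4 CPM in cells given both, against 71.6 and 75.2 CPM in TMAO cells and 78.5 and 74.7 CPM in control cells. The groups overlapped, and the log2 fold change for TNF-α against control was -0.11 ± 0.10, or -0.08 without TNF-α library 16.

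**Figure D1:**
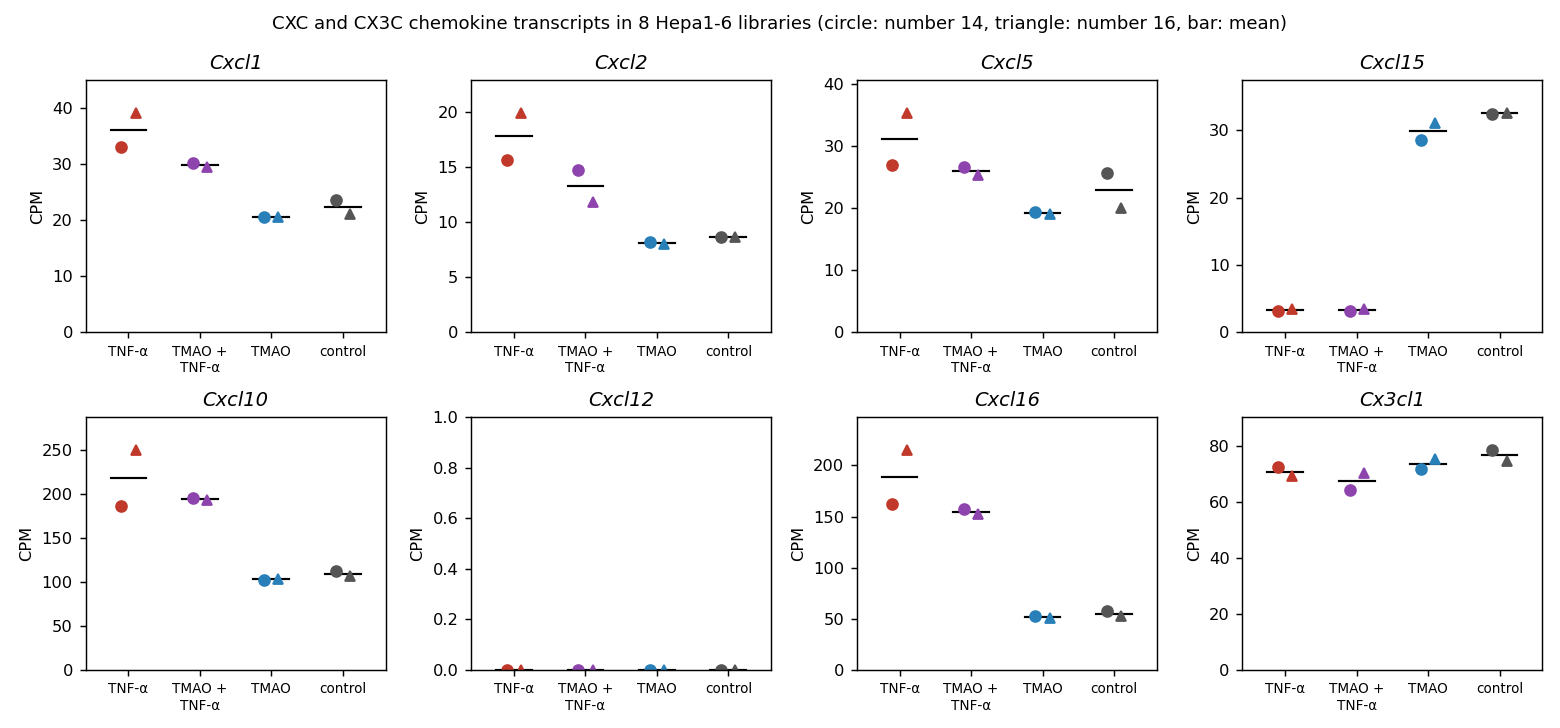
CPM of each of the 8 chemokine genes by library, on linear axes that start at 0 and differ between panels. The circle is library 14, the triangle library 16 and the bar the mean of the 2 libraries of a group. Cxcl15 sat at 3.11 to 3.47 CPM in the libraries with TNF-α and 28.6 to 32.6 CPM in those without, while Cxcl1, Cxcl2, Cxcl10 and Cxcl16 were higher in the libraries with TNF-α and Cxcl5 and Cx3cl1 overlapped.

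The counts and the deposited TPM went apart for Cx3cl1. It had 12.7 and 33.8 TPM in TNF-α cells and 11.6 and 10.95 TPM in cells given both, against 13.0 and 12.3 TPM in TMAO cells and 9.34 and 13.5 TPM in control cells. TNF-α library 16 lay alone above the other 7 in TPM, yet at 69.2 CPM it was below TNF-α library 14. Control library 14 had the highest CPM of all 8, 78.5, and the lowest TPM, 9.34. The direction of the difference between TNF-α and control cells depended on the table, with a log2 difference of 0.84 on the log2(TPM + 1) scale, and so did that for both agents against control, at 0.0044, and for TMAO against control, at 0.16. For the other 6 detected genes, the direction for TNF-α against control was the same in both tables.

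Under the threshold that was used for all genes (edgeR's quasi-likelihood test, Benjamini-Hochberg adjusted p under 0.05), 5 of the 7 were past it for TNF-α against control, with Cxcl1, Cxcl2, Cxcl10 and Cxcl16 higher and Cxcl15 lower. Among all genes, 4.05% were past it. For both agents against control, Cxcl10 and Cxcl16 were past it as higher and Cxcl15 as lower, and 3.49% of all genes were past it. The same 3 were past it for both agents against TMAO, with 3.64% of all genes. These counts use the contrasts by which the set was chosen, and nothing is read from them. Without TNF-α library 16 the numbers of the 7 past the threshold were as high or higher, and the number of all genes past it also varied with the library left out. The median log2 fold change of the 7 was 0.68 for TNF-α against control, 0.41 for both against control and 0.54 for both against TMAO, beside medians over all genes of 0.02, -0.003 and -0.02. The libraries with TNF-α all lay above those without for Cxcl1, Cxcl2, Cxcl10 and Cxcl16, as they did for 9.81% of all genes, and all lay below for Cxcl15, as they did for 10.2% of all genes.

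TMAO was not used to choose the genes, so its comparisons were tested. No chemokine gene passed the test for TMAO against control, where 0 of 15613 genes passed (0%, with 184 at an unadjusted p under 0.05, 4 called by DESeq2 and 0 by limma-voom). All 7 fitted values were below 0, from -0.25 for Cxcl5 to -0.06 for Cx3cl1, each with an adjusted p of 1 by edgeR's test, and none of their intervals excluded 0. For Cxcl15 the log2 fold change was -0.12 with a 95% interval of -0.38 to 0.14, and for Cxcl1 it was -0.13 with an interval of -0.42 to 0.16. In the levels, both TMAO libraries lay under both control libraries for Cxcl1, Cxcl2, Cxcl5, Cxcl10 and Cxcl15, by differences that this test did not set apart from the spread between libraries. The same held for 15.9% of all genes.

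For both agents against TNF-α, 0 of 15613 genes passed (0%, with 549 at an unadjusted p under 0.05, and 0 called by DESeq2 or limma-voom), and no chemokine gene did. The fitted value of Cxcl15 was 0.02, with a 95% interval of -0.30 to 0.33, so an added TMAO left no detectable difference in Cxcl15 at this number of libraries. The other 6 values were below 0. Cxcl2 had the most negative, -0.42 with an interval of -0.81 to -0.03 and an adjusted p of 0.569 by edgeR's test. Both libraries given both agents lay under both TNF-α libraries for Cxcl1, Cxcl2, Cxcl5 and Cxcl16, as they did for 17.3% of all genes. The fitted values leaned on TNF-α library 16. Without it, Cxcl2 was at -0.24, Cxcl16 at -0.07 against -0.29 with it, and Cxcl10 at 0.06 against -0.17 with it, all with an adjusted p of 1. With library 16 as the lone TNF-α library, 5 of the 7 passed in this comparison, Cxcl1, Cxcl2, Cxcl5, Cxcl10 and Cxcl16, along with 8068 genes in all. In that fit the lone library is assumed to vary like those of the other groups.

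The interaction asks whether TMAO changed the difference that TNF-α made. By edgeR, 0 of 15613 genes passed (0%, with 184 at an unadjusted p under 0.05, and 0 called by DESeq2 or limma-voom). The difference of log2 fold changes was 0.14 for Cxcl15, with an interval of -0.27 to 0.54, and lay between -0.33 for Cxcl2 and -0.01 for Cx3cl1 in the other 6, with adjusted p from 0.953 to 0.992 over the 7 by edgeR's test. The intervals bound what these libraries could miss: for Cxcl15, an altered response of up to 0.54 on the log2 scale lies within them, beside a fitted change of -3.31 for TNF-α against control. Without TNF-α library 14, 2 of the 7 passed, Cxcl10 at -0.25 and Cxcl16 at -0.37, with 5788 genes in all, and without library 16 none did.

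**Figure D2:**
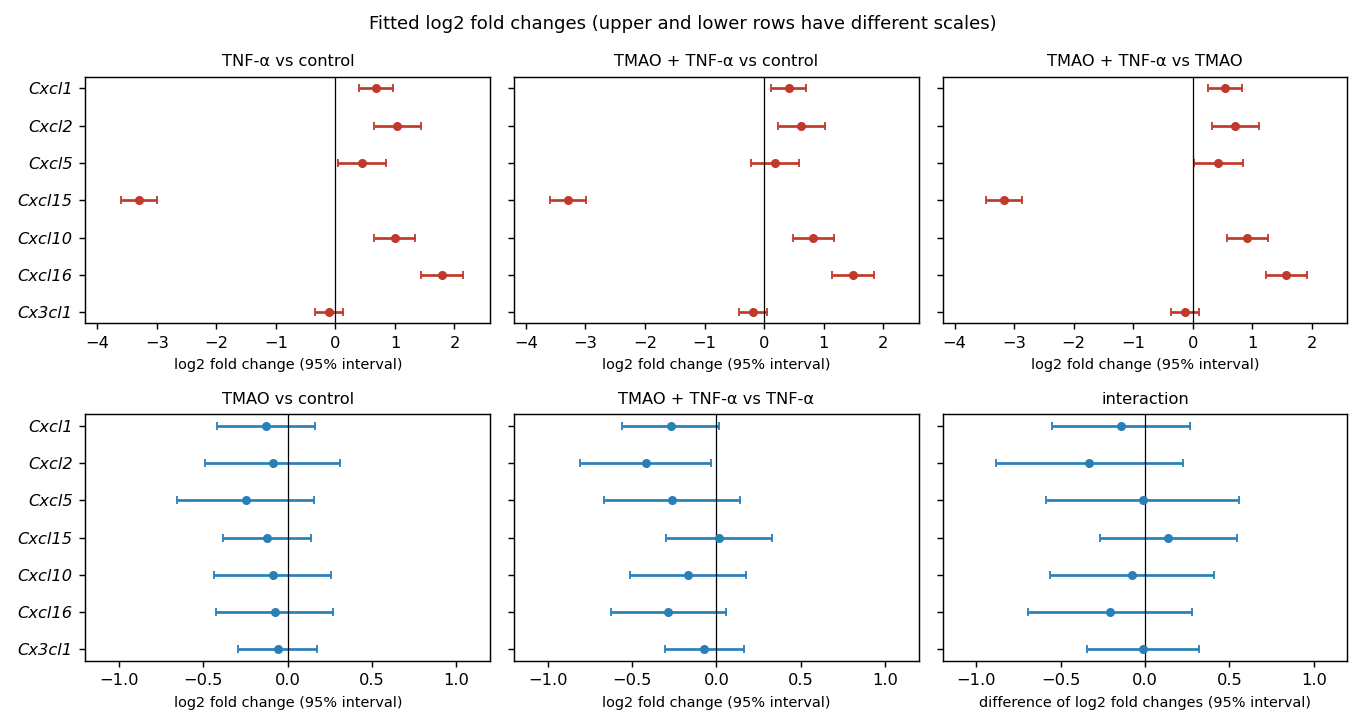
Fitted log2 fold changes of the 7 detected chemokine genes with 95% intervals, in 6 comparisons. The upper row, with TNF-α in the group named first and absent from the other, is a description of the contrasts by which the genes were chosen, with Cxcl15 between -3.31 and -3.17 and Cxcl16 between 1.497 and 1.78. The lower row, on a narrower scale, holds the effect of TMAO and the interaction, where every interval but that of Cxcl2 for both agents against TNF-α includes 0.

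The summed TPM of the set was 693 and 743 in TNF-α cells and 688 and 686 in cells given both, against 364 and 382 in TMAO cells and 386 and 393 in control cells. Cxcl10 made up most of it in every group, with 56.5% ± 0.205 in TNF-α cells and 59.3% ± 0.765 in cells given both, against 55.0% ± 0.788 in TMAO cells and 54.6% ± 0.0782 in control cells (mean ± SD, n = 2 each). Cxcl16 took 22.6% ± 0.700 in TNF-α cells and 22.0% ± 0.439 in cells given both, against 13.3% ± 0.323 in TMAO cells and 12.7% ± 0.252 in control cells. Cxcl15 took 0.370% ± 0.0480 in TNF-α cells and 0.450% ± 0.0331 in cells given both, against 7.34% ± 0.0244 in TMAO cells and 7.60% ± 0.231 in control cells. The sum was thus higher with TNF-α while Cxcl15 shrank to a trace of it.

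**Figure D3:**
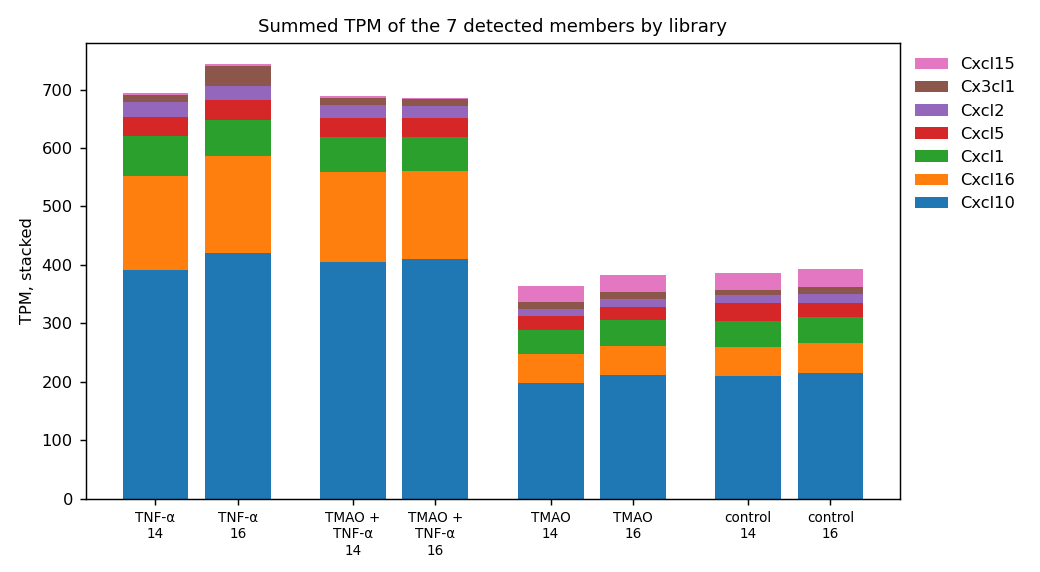
Deposited TPM of the 7 detected chemokine genes stacked by library, with the group and library number under each bar. Sums of 686 to 743 TPM in the libraries with TNF-α stand beside 364 to 393 TPM in those without, and the Cxcl15 segment at the top averages 0.370% of the bar in TNF-α cells and 0.450% in cells given both, against 7.34% in TMAO cells and 7.60% in control cells.

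The other CXC chemokine genes, a list of 8, showed that Cxcl15 was not alone in its direction. Of the 8, 4 were tested, 2 had 0 counts in every library, and 5, those 2 included, stayed under 1 CPM everywhere. Ppbp, the precursor of platelet and neutrophil-activating peptides, had 2.68 and 2.69 CPM in TNF-α cells and 2.08 and 1.95 CPM in cells given both, against 7.67 and 8.55 CPM in TMAO cells and 9.43 and 8.20 CPM in control cells. It fell in all 3 comparisons, with a log2 fold change of -1.71 ± 0.16 and an adjusted p of 0.00237 by edgeR's test for TNF-α against control, -2.13 ± 0.16 (adjusted p = 0.00124) for both against control, and -2.01 ± 0.16 (adjusted p = 0.00145) for both against TMAO. The Ppbp calls held without each library in turn, and the call for TNF-α against control was lost when only those 4 libraries were fitted.

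Cxcl3, a neutrophil attractant, had 92.2 and 132 CPM in TNF-α cells and 84.1 and 90.7 CPM in cells given both, against 53.9 and 57.4 CPM in TMAO cells and 57.1 and 54.1 CPM in control cells. It rose for TNF-α against control by 1.01 ± 0.17 on the log2 scale (edgeR adjusted p = 0.0233) and was not past the threshold for both against control, at 0.65 ± 0.17 (adjusted p = 0.108), or for both against TMAO, at 0.65 ± 0.17 (adjusted p = 0.106). Cxcl11, a ligand of Cxcr3 like Cxcl10, had 5.66 and 7.73 CPM in TNF-α cells and 5.57 and 6.14 CPM in cells given both, against 1.96 and 1.23 CPM in TMAO cells and 2.23 and 2.21 CPM in control cells. It rose in all 3 comparisons, by 1.59 ± 0.26 (edgeR adjusted p = 0.0202), 1.40 ± 0.26 (adjusted p = 0.0358) and 1.88 ± 0.27 (adjusted p = 0.0124). The calls of Cxcl3 for TNF-α against control and of Cxcl11 for TNF-α and for both agents against control were each lost without either control library and without either library given both agents, and that of Cxcl3 also without either TMAO library. The calls of Cxcl11 for both against TMAO were lost without either library of those groups. Cxcl3 and Cxcl2 share 126 stretches of 50 bases, 5.84% of those of Cxcl2, and Cxcl11 overlaps Gm2673 on the opposite strand over 41.7% of its exon bases, so their counts are uncertain to that degree.

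Cxcl15 lies in a cluster of CXC chemokine genes on mouse chromosome 5, where the order of protein-coding genes is Rassf6, Cxcl5, Ppbp, Pf4, Cxcl3, Cxcl15, Cxcl1, Cxcl2, Mthfd2l, Epgn and Ereg. Its direct neighbours Cxcl3 and Cxcl1, on the same strand, had positive log2 fold changes for TNF-α against control, 1.01 ± 0.17 and 0.68 ± 0.12. Ppbp, on the far side of Pf4 and Cxcl3, was the other gene of the stretch past the threshold as lower. The tested neighbours that are not chemokines were not past the threshold, with Rassf6 at -0.48 (edgeR adjusted p = 0.157) and Mthfd2l at 0.06 (adjusted p = 0.850) for TNF-α against control. Rassf6 was also below 0 for both agents against TMAO, at -0.61 (adjusted p = 0.0761), with 20.2 to 27.3 CPM in the 4 libraries with TNF-α and 32.4 to 34.4 CPM in the 4 without. It was past the threshold for TNF-α against control without TNF-α library 16, at -0.67 (adjusted p = 0.000345), where Mthfd2l was at 0.04. Epgn, Ereg and Pf4 had too few counts to be tested. The window of Cxcl3 held the NF-κB consensus beginning 73 bases before its start, and the window of Ppbp held none and TATA boxes beginning 30 and 8 bases before its start.

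**Figure D4:**
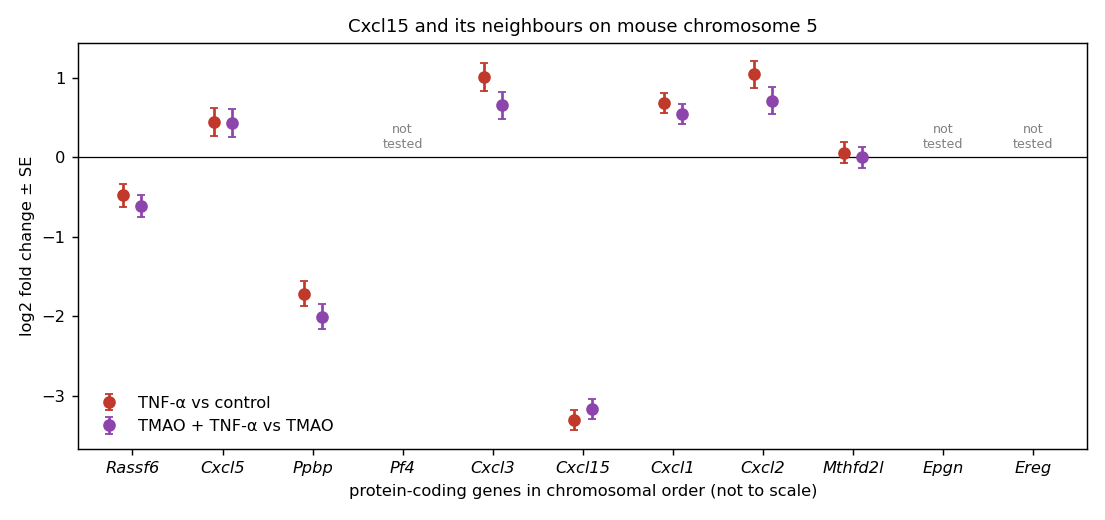
Log2 fold change ± SE of Cxcl15 and the 5 protein-coding genes on each side of it, in chromosomal order and not to distance, for TNF-α against control and for both agents against TMAO. Cxcl15, at -3.31 and -3.17, stands between Cxcl3, at 1.01 and 0.65, and Cxcl1, at 0.68 and 0.54, and Ppbp, at -1.71 and -2.01, and Rassf6, at -0.48 and -0.61, lie below 0 as well.

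The receptors of these chemokines were nearly absent. Of 9 listed receptor genes, 1 was tested, Cxcr6, the receptor of Cxcl16, which was not past the threshold. All 9 stayed under 1 CPM in every library, and their summed level was 0.620 to 1.06 CPM in TNF-α cells and 0.816 to 1.01 CPM in cells given both, against 0.331 to 0.420 CPM in TMAO cells and 0.304 to 0.965 CPM in control cells. Cxcr4, the receptor of Cxcl12, and Ackr1, named because no library had a count of them, were at 0 throughout. The genes of shedding and cleavage were present, and none of 6 tested among 7 was past the threshold in the 3 comparisons with TNF-α. The smallest p-values for TNF-α against control were those of Rhbdf1, a partner of the sheddase Adam17, at a log2 fold change of 0.26 ± 0.10, Adam10, which sheds Cxcl16 and Cx3cl1, at -0.30 ± 0.20, and Timp3, an inhibitor of metalloproteinases, at -0.43 ± 0.31. The values of Adam10 and Timp3 came from TNF-α library 16, without which they were -0.02 and -0.01. Adam10 had 152 CPM in TNF-α library 14 and 98.7 CPM in library 16, against 142 and 166 CPM in control cells. Timp3 had 33.2 CPM in TNF-α library 14 and 16.2 CPM in library 16, against 28.6 and 38.2 CPM in control cells. Without TNF-α library 14 some of the 6 were past the threshold for TNF-α against control, in the fit where the number of all genes past it was largest.

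Of 11 NF-κB subunits and cofactors, 4 were past the threshold as higher for TNF-α against control and none as lower, beside 4.05% of all genes past it. For both agents against control and for both against TMAO 2 were past it as higher, beside 3.49% and 3.64% of all genes. Nfkbia, which encodes the inhibitor IκBα and is itself a target of NF-κB, rose by 1.72 ± 0.15 on the log2 scale for TNF-α against control (edgeR adjusted p = 0.00228) and Relb, a subunit of the non-canonical arm, by 1.52 ± 0.16 (adjusted p = 0.00401). These 2 also rose with both agents, by 1.49 ± 0.15 and 1.26 ± 0.16 against control (adjusted p = 0.00379 and 0.00768). Bcl3, a nuclear cofactor, rose by 0.85 ± 0.14 (adjusted p = 0.0224) and Nfkb2, the partner of Relb, by 0.61 ± 0.11 (adjusted p = 0.0282), for TNF-α against control. Both were also above 0 but not past the threshold with both agents. Against control Bcl3 was at 0.60 ± 0.14 and Nfkb2 at 0.53 ± 0.11 (edgeR adjusted p = 0.0825 and 0.0523). Against TMAO they were at 0.59 ± 0.14 and 0.52 ± 0.11 (adjusted p = 0.0862 and 0.0530). The difference between comparisons was not tested. The median log2 fold change of the 11 was 0.43, beside 0.02 over all genes. The number past the threshold for TNF-α against control depended on the libraries. It was higher without TNF-α library 14 or 16 and lower without any 1 of the others. Without TNF-α library 14 some genes of the list were past it as lower. The number of all genes past the threshold depended on the library left out too, and was largest without TNF-α library 14. The Bcl3 and Nfkb2 calls were lost without either library of the control, TMAO or combined groups, and that of Relb without either control library. That of Nfkbia held without each library in turn and was lost in 1 of the 19 alternative fits. For both agents against control the Nfkbia call was lost without control library 16, and that of Relb without either control library or either library given both agents.

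Among 6 interferon factors, Irf1, a transcription factor induced by inflammatory signals, rose by 0.69 ± 0.12 for TNF-α against control (edgeR adjusted p = 0.0215) and by 0.59 ± 0.12 for both against TMAO (adjusted p = 0.0413), and was at 0.55 ± 0.12 for both against control (adjusted p = 0.0542). The first of these calls was lost without either library of the control, TMAO or combined groups, and so was the second. Irf7, at 0.53 ± 0.15, was not past the threshold for TNF-α against control but was so without TNF-α library 16, at 0.32 (adjusted p = 0.0137). More of the 6 were past the threshold without TNF-α library 14 or 16, and the number of all genes past it also varied with the library left out. None of 10 genes that act on the decay of chemokine transcripts was past it in the 3 comparisons with TNF-α. The smallest p-values of that list for TNF-α against control belonged to Arid5a, which stabilises inflammatory transcripts, at 0.47 ± 0.15, Zfp36l2, at -0.43 ± 0.14, and Zfp36, which promotes decay of AU-rich transcripts, at 0.33 ± 0.11. Arid5a was at 0.30 and Zfp36l2 at -0.26 without TNF-α library 16. Genes of the 10 were past the threshold in both directions without TNF-α library 14, and fewer were past it without library 16. The number of all genes past it varied too, and was largest without TNF-α library 14.

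The genes whose levels over the 8 libraries were most like those of Cxcl15, by the root mean square difference of log2 CPM centred on each gene's mean among 12363 genes, were H2-Q1 at 0.110, Notum at 0.229, Mal at 0.287, Abcd2 at 0.327 and 5330413D20Rik at 0.336. H2-Q1, a non-classical class I gene of the major histocompatibility complex, averaged 4.81 ± 0.105 CPM in TNF-α cells and 4.23 ± 0.541 CPM in cells given both, against 41.4 ± 2.78 CPM in TMAO cells and 45.5 ± 0.254 CPM in control cells (SD, n = 2 each). Notum, an enzyme that inactivates Wnt proteins, averaged 2.50 ± 0.678 CPM in TNF-α cells and 2.36 ± 0.0791 CPM in cells given both, against 17.3 ± 0.283 CPM in TMAO cells and 18.3 ± 3.22 CPM in control cells. H2-Q1 has close copies in its gene family, so its counts are uncertain to the extent that reads are shared. For Cxcl1 the nearest genes were Gsdmd at 0.0459, Fosl1 at 0.0530, Sdc4 at 0.0535, Tgfb1 at 0.0581 and Tle6 at 0.0599. Gsdmd, which forms pores in the plasma membrane, averaged 135 ± 21.9 CPM in TNF-α cells and 118 ± 1.53 CPM in cells given both, against 81.1 ± 0.631 CPM in TMAO cells and 86.9 ± 3.03 CPM in control cells. These genes were picked for their likeness over the same libraries, which share the 2 exposures, and the values describe that choice.

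Markers of other cell types were followed beside these values. Hepatocyte markers moved with Cxcl15: Alb fell by 1.58 on the log2 scale for TNF-α against control (edgeR adjusted p = 0.00232), Afp, the fetal serum protein of hepatoma cells, by 1.10 (adjusted p = 0.0130) and Hnf4a, a hepatocyte transcription factor, by 0.72 (adjusted p = 0.0330), 3 of the 4 tested among 6. Of all genes, 4.05% were past the threshold in that comparison. Trf, also tested, was not past it, at -0.61 (edgeR adjusted p = 0.478), or -0.96 without TNF-α library 16. The counts and the deposited TPM went apart for Trf, with 1.06 to 2.57 CPM but 131 to 197 TPM over the 8 libraries. The summed level of the 6 was 1129 to 1380 CPM in TNF-α cells and 1086 to 1132 CPM in cells given both, against 2719 to 2762 CPM in TMAO cells and 2891 to 3031 CPM in control cells. Of 4 biliary markers, Epcam, at -1.23, and Krt7, at -1.19, fell as well (edgeR adjusted p = 0.0419 and 0.0425). Sox9, the most abundant of them, was not past the threshold, at -0.09 (adjusted p = 0.722), or 0.009 without TNF-α library 16. It had 42.6 to 48.9 CPM with TNF-α and 45.3 to 49.0 CPM without, and Krt19 stayed under 1 CPM. The 4 summed to 54.0 to 56.0 CPM in TNF-α cells and 50.7 to 54.4 CPM in cells given both. The sums were 65.9 to 67.3 CPM in TMAO cells and 69.9 to 70.6 CPM in control cells. For TNF-α against control the Alb call held without each library in turn and was lost in 1 of the 19 alternative fits. Those of Afp, Hnf4a, Epcam and Krt7 were lost without either library of the control, TMAO or combined groups. Alb, Afp and Krt7 were also past the threshold as lower for both agents against control and against TMAO. Hnf4a was past it in neither, at -0.58 ± 0.13 in each (edgeR adjusted p = 0.0746 and 0.0703). Epcam was past it for both against control but not against TMAO, at -1.15 ± 0.24 (adjusted p = 0.0560). The part of these markers in the chemokine values was not tested, and in bulk samples fewer cells of a type and less RNA per cell cannot be told apart. Markers of lung epithelium, the known site of Cxcl15, were near 0, with 4 genes summing to 0.199 to 0.248 CPM in TNF-α cells and 0.106 to 0.144 CPM in cells given both, against 0.0994 to 0.105 CPM in TMAO cells and 0.0676 to 0.172 CPM in control cells, and Sftpa1 at 0 everywhere. Leukocyte markers were carried by Cd68 alone, which was at 7.85 to 13.1 CPM, since the other 5 stayed under 1 CPM and Cd3e was at 0. All 4 endothelial markers stayed under 1 CPM. Of 5 stellate or fibroblast markers, Col1a1 reached 1.76 CPM and Des 1.03 CPM, while the other 3 stayed under 1 CPM, with Col3a1 at 0.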

How the data were processed

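The authors deposited a table of whole-number counts per Ensembl gene and library, named for htseq, and a table of TPM per gene symbol. The build is mm9 per the submitters' processing notes. Not given in the sources used here are the aligner, the annotation and whether strand was used. Gene identifiers were matched to GENCODE M21, so no coordinates of that annotation are printed. RefSeq promoter windows carry their own build.

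The 8 genes, the 12 other gene lists, the tests and the settings were chosen with earlier results of these data known. All members are named, as are list genes that passed a test or had 1 of the 3 smallest p-values of their list for TNF-α against control, and the 5 genes nearest in pattern to Cxcl15 and to Cxcl1. A gene that this rule chose is not reported here. Further names, such as genes at 0, were added after their values were seen.

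Counts were fitted with edgeR 4.0.16 in R 4.3.3: filterByExpr, TMM scaling, 4 group means over 8 libraries, glmQLFit (robust) and glmQLFTest, with Benjamini-Hochberg adjustment over 15613 genes at 0.05. SE is the log2 fold change over the square root of F. Log2 CPM used a prior count of 2. The method was tested on simulated counts. The floor is 3 counts per library, 0.0993 to 0.124 CPM, and covers counting error only. Intervals (95%) use the fitted spread between libraries. Alternatives were RLE and total count scaling, other filters, DESeq2 1.42.0, limma-voom (limma 3.58.1), a replicate block, single libraries left out, the compared groups alone, and limma on log2(TPM + 1) and log2(TPM + 0.1). Of TPM symbols, 95 occurred more than once and were left out.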

Additional observations from a re-analysis of the deposited data

How the results depend on the processing

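The direction of the TNF-α difference was the same for Cxcl1, Cxcl2, Cxcl5, Cxcl10, Cxcl15 and Cxcl16 under all 19 alternatives, with Cxcl15 at -3.44 to -3.07 for TNF-α against control. How many genes passed varied more. For TNF-α against control the count of 633 was 954 with no filter on low counts, 960 by DESeq2, 241 and 210 by limma on log2(TPM + 1) and log2(TPM + 0.1), and 1 when only the groups compared were fitted, where none (0) of the 7 chemokine genes passed. For both agents against control the count of 545 became 895, 899, 268, 250 and 2373 in the same order, and for both against TMAO the count of 569 became 898, 908, 288, 264 and 4775. With only the groups compared, 5 chemokine genes passed for both against control and 6 for both against TMAO, and for both against TMAO 5 passed with no filter and by DESeq2. For TMAO against control 2 genes passed with no filter, 4 by DESeq2 and 3 with only the groups compared, and for both against TNF-α 2 genes passed by limma on log2(TPM + 1).

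With the replicate block, the counts of genes were 342, 301 and 323 in the 3 comparisons with TNF-α, and 3 chemokine genes passed for TNF-α against control. The labels do not say that the numbers 14 and 16 pair libraries, and the differences between number 16 and number 14 correlated at -0.42 between TNF-α and control and at -0.046 to 4.3e-05 between the other groups, so the numbers were not treated as pairs.

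Leaving out each library in turn gave 92 to 7971 genes and 2 to 6 chemokine genes for TNF-α against control, 90 to 3013 and 1 to 5 for both against control, 71 to 2628 and 1 to 6 for both against TMAO, 0 to 9 genes for TMAO against control, 0 to 8068 and 0 to 5 for both against TNF-α, and 0 to 5788 and 0 to 2 for the interaction. The largest count for TNF-α against control came without TNF-α library 14. Without TNF-α library 16 and control library 14 together, chosen after seeing the data, 3273, 3703 and 4832 genes passed in the 3 comparisons with TNF-α, 48 for TMAO against control, 12 for both against TNF-α and 1 for the interaction, and 6 chemokine genes passed for both against control and for both against TMAO. The cause was not tested.

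Values that changed sign were all under the threshold. By limma on log2(TPM + 1) and log2(TPM + 0.1), Cx3cl1 was at 0.84 and 0.88 for TNF-α against control, 0.0044 and 0.0064 for both against control, and 0.16 and 0.17 for TMAO against control, and Cxcl10 was at 0.00654 and 0.00656 for both against TNF-α. In the same order the interaction was 0.16 and 0.17 for Cxcl5 and 0.061 and 0.061 for Cxcl10. By total count scaling it was 0.025 for Cxcl5 and 0.022 for Cx3cl1, and with no filter 0.00019 for Cx3cl1. Without the 2 libraries named above, Cxcl10 was at 0.062 for both against TNF-α and at 0.12 for the interaction, and Cxcl5 at 0.019 for the interaction. Over the libraries left out in turn, both against TNF-α ranged from -0.13 to 0.0038 for Cx3cl1, -0.043 to 0.093 for Cxcl15 and -0.34 to 0.059 for Cxcl10, and the interaction from -0.19 to 0.20 for Cxcl5, -0.072 to 0.069 for Cx3cl1, -0.25 to 0.15 for Cxcl10 and -0.37 to 0.0104 for Cxcl16.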
